A study of Homo sapiens with 9 samples.

Results

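A set of 10 keratins and epithelial identity genes was followed across 9 RNA-seq libraries of the lung adenocarcinoma cell line H1975. The set holds the keratins KRT7, KRT8, KRT18 and KRT19, the adhesion genes CDH1 and EPCAM, the regulators ELF3, ESRP1 and GRHL2, and the serpin SERPINB5. The members were named by current gene symbol, and all 10 of them were found among the 56823 genes with a matched transcript and passed the filter on low counts, which left 19658 genes for testing. All cells carried dCas9-KRAB, a nuclease-dead Cas9 fused to a repressor domain, behind a promoter (TRE) that responds to doxycycline, and all received 4 ug/ml doxycycline for 72 h. The 3 control libraries came from cells with a non-targeting guide RNA (NT control), the 3 gRNA1 libraries from cells with TRIDENT gRNA1, and the 3 gRNA2 libraries from cells with TRIDENT gRNA2, where TRIDENT is a long noncoding RNA that the study links to EGFR. Total RNA was depleted of ribosomal RNA before library preparation. The labels do not say whether replicates were separate cultures, so every p-value measures the spread between these libraries, which may be technical. The 2 comparisons of a guide with the control share the same 3 control libraries. The question put to the data here is how the epithelial genes stood in each guide group.

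Simple epithelial cells contain keratin filaments, which are anchored at desmosomes. The filaments are built from pairs of a type I keratin (KRT18 or KRT19) and a type II keratin (KRT7 or KRT8). E-cadherin (CDH1) joins neighbouring cells at adherens junctions, and EPCAM is a surface glycoprotein of most carcinomas. GRHL2, ELF3 and ESRP1 keep the epithelial programme going: GRHL2 activates CDH1 and other junction genes, ELF3 is an ETS transcription factor of epithelia, and ESRP1 directs epithelial splicing. In the opposite state, the mesenchymal one, factors of the ZEB and SNAIL families bind E-box motifs in epithelial promoters and repress them.

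Read totals ran from 16918432 to 26466536 per library, and the biological coefficient of variation was 0.051. The RNA matched to the target, listed as TRIDDENT (chromosome 16), lay at 2.28 to 2.85 CPM (reads of a gene after adjusting for how many reads each library has) in the controls, 1.77 to 2.09 in the libraries labelled gRNA1 and 2.29 to 2.52 in those labelled gRNA2, on 36 to 62 reads per library. Its fold was 0.745 with gRNA1 (95% interval 0.588 to 0.943, edgeR adjusted p = 0.128) and 0.945 with gRNA2 (0.753 to 1.19, adjusted p = 0.81), so the target did not pass the threshold in either. Mitochondrially encoded genes took 5.37% to 5.68% of gene reads in the controls, 5.72% to 6.61% with gRNA1 and 5.78% to 6.2% with gRNA2, and the part of this in the results below was not tested. The 9 epithelial markers used were the members other than SERPINB5, so they give no separate check of the label of an epithelial line. All 9 were above 1 TPM (a share of all transcripts, scaled for length) in every library, with a summed level of 2129 to 2262 TPM. Of 10 blood markers, CD3D, MS4A1, HBB and HBA1 had 0 reads in every library and the list summed to 12.1 to 14.9 TPM, led by CSF1R at 7.79 and LYZ at 3.5 TPM in the controls. Of 8 fibroblast markers COL3A1 had 0 reads and the list summed to 10.9 to 14.2 TPM, led by COL1A1 at 8.84 TPM in the controls. The 5 squamous and basal markers, among them KRT5, KRT14 and TP63, were all under 1 TPM, as were the 6 endothelial and the 5 neuroendocrine markers, of which CHGA, NCAM1 and INSM1 had 0 reads. Summed endothelial markers were 0.546 to 0.714 TPM in the controls, 0.837 to 1.16 in gRNA1 and 0.758 to 0.857 in gRNA2, and summed squamous and basal markers 0.752 to 0.901, 0.514 to 0.967 and 0.959 to 1.08 TPM. Summed neuroendocrine markers were 0.566 to 0.613, 0.58 to 0.624 and 0.628 to 0.711 TPM. In bulk RNA, fewer cells that express a gene and less of its RNA per cell cannot be told apart.

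Most of the 10 genes lay close to the controls with either guide, and the changes that passed the test were small. With gRNA1, ELF3 and SERPINB5 rose and CDH1 fell. With gRNA2, KRT19 and KRT8 fell. Between the guides, KRT19, ELF3 and SERPINB5 were lower with gRNA2. KRT7, KRT18, EPCAM, ESRP1 and GRHL2 passed the test in none of the 3 comparisons.

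In counts, 3 of 10 members passed an edgeR adjusted p of 0.05 with gRNA1 (2 higher, 1 lower), where 7.08% of all genes tested did, 3.49% higher and 3.58% lower. With gRNA2, 2 of 10 passed, both lower, where 8.44% of all genes did, 3.69% higher and 4.75% lower. Between the guides 3 of 10 were called, all lower with gRNA2, against 6.22% of all genes in either direction, 3.12% higher and 3.1% lower. The median log2 fold change of the members was -0.06 with gRNA1, -0.07 with gRNA2 and -0.04 between the guides, beside 0.00, 0.01 and 0.00 over all genes tested. Of the 10 members, 8 had a log2 fold change below 0 with gRNA1, 8 with gRNA2 and 6 between the guides. All 3 libraries of a group lay beyond all 3 of the other for 4 members with gRNA1 (28.1% of all genes), 4 with gRNA2 (27.4%) and 5 between the guides (23.8%). With so few members, these shares describe the 10 genes and do not set them apart from the rest.

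Levels scaled for length ordered the members as follows. KRT7, a type II keratin of glandular and lung epithelium, was the highest at 756 ± 33.7 TPM (mean ± SD, n = 3 in this and the following values), above 99.4% of the genes tested. EPCAM at 360 ± 5.94 TPM and KRT19 at 343 ± 13.9 TPM followed, and their control ranges overlapped. Below them came KRT8 at 274 ± 14.7, KRT18 at 214 ± 5.42, CDH1 at 117 ± 6.62 and ESRP1 at 98.1 ± 4.78 TPM. The transcription factors were lower, with ELF3 at 39.8 ± 1.66 and GRHL2 at 22.3 ± 2.1 TPM. SERPINB5 was the lowest at 7.04 ± 1.61 TPM, above 50.7% of the genes tested. Apart from EPCAM and KRT19, no neighbours in this order overlapped in their control values.

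**Figure D1:**
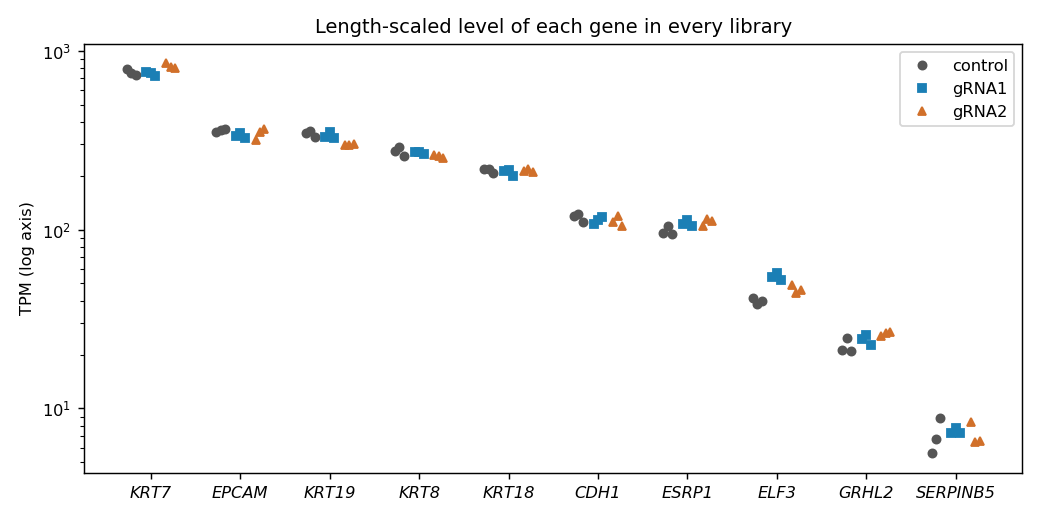
Length-scaled level (TPM, log axis) of each of the 10 genes in each library, ordered by the control mean, with 1 point per library and groups marked by shape and colour. KRT7 (756 TPM in the controls) is highest and SERPINB5 (7.04 TPM) lowest, and the 3 groups lie close together within each gene.

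The filament genes divided into 2 that were lower with gRNA2 and 2 that were not called. KRT19 (chromosome 17, positions 41523617 to 41528308 of hg38, minus strand), the smallest type I keratin, had 484, 433 and 437 CPM in the controls, 406, 420 and 442 in gRNA1, and 383, 365 and 358 in gRNA2. Every gRNA2 library lay below every control and every gRNA1 library, whereas gRNA1 and the controls overlapped. KRT19 fell to 0.817-fold with gRNA2 (95% interval 0.762 to 0.876, edgeR adjusted p = 0.00187). It stood at 0.936-fold with gRNA1 (0.873 to 1, adjusted p = 0.255), and the direct comparison put gRNA2 at 0.873-fold of gRNA1 (0.814 to 0.936, adjusted p = 0.0229). The call against the control held in all 18 alternative analyses, with adjusted p up to 0.0148. The call between the guides ended without gRNA1 replicate 2 or 3 or without gRNA2 replicate 2 or 3 (adjusted p = 0.0622, 0.0845, 0.0911 and 0.0786). A single transcript, ENST00000361566.7, held 98% of KRT19 reads. It stood at 324 ± 15.6 TPM in the controls, 307 ± 15.5 in gRNA1 and 284 ± 6.81 in gRNA2.

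KRT8 (chromosome 12, positions 52897187 to 52949954, minus strand), the type II partner of KRT18, had 447, 420 and 410 CPM in the controls, 388, 397 and 425 in gRNA1, and 395, 365 and 357 in gRNA2. The gRNA2 libraries lay below all controls, with gRNA2 replicate 1 within the range of gRNA1. KRT8 fell to 0.875-fold with gRNA2 (0.816 to 0.939, edgeR adjusted p = 0.0217) and stood at 0.948-fold with gRNA1 (0.884 to 1.02, adjusted p = 0.363). Set directly against gRNA1, gRNA2 was at 0.924-fold (0.861 to 0.991, adjusted p = 0.189). The gRNA2 call did not pass without control replicate 1 or 2 (adjusted p = 0.0957 and 0.0534) or without gRNA2 replicate 2 or 3 (0.101 and 0.0857). It was also lost (0.0858) when counts were corrected for the average effective transcript length of each gene in each library, called the length offset from here on. KRT8 overlaps KRT18 on the opposite strand, and 8 KRT8 transcripts that reach into KRT18 held 16.1% of KRT8 reads (13.2% to 19% per library). The strand setting of the quantification is not given in the sources used here. With those transcripts left out, an alternative chosen after seeing the data, KRT8 was at a log2 fold change of -0.23 with gRNA2 (adjusted p = 0.0176).

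KRT18 (chromosome 12, positions 52948871 to 52952901, plus strand), the type I keratin paired with KRT8, had 388, 352 and 369 CPM in the controls, 347, 345 and 362 in gRNA1, and 363, 350 and 328 in gRNA2. Groups overlapped throughout. The fold was 0.951 with gRNA1 (0.89 to 1.02, edgeR adjusted p = 0.367) and 0.939 with gRNA2 (0.879 to 1, adjusted p = 0.236). Parts of KRT8 and KRT18 recur elsewhere: 25.3% of the 31-base words of KRT8 transcripts and 35% of those of KRT18 also occur in transcripts of other genes. The 51 annotated KRT8 pseudogenes held reads equal to 2.54% of those of KRT8, and the 64 KRT18 pseudogenes 1.6%. Adding these reads to the parent genes changed no call.

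KRT7 (chromosome 12, positions 52232520 to 52252186, plus strand) had 987, 866 and 887 CPM in the controls, 866, 864 and 945 in gRNA1, and 969, 880 and 849 in gRNA2. Control replicate 1, gRNA1 replicate 3 and gRNA2 replicate 1 were the highest of their groups, and the groups overlapped. The fold was 0.977 with gRNA1 (0.899 to 1.06, edgeR adjusted p = 0.777) and 0.985 with gRNA2 (0.907 to 1.07, adjusted p = 0.868), and both signs turned when single libraries were left out. As gene TPM, KRT7 stood higher in gRNA2 (821 ± 24) than in the controls (756 ± 33.7), and with the length offset its log2 fold with gRNA2 turned to 0.05. ENST00000331817.5, with 82.2% of KRT7 reads, stood at 437 ± 22.6 TPM in the controls, 438 ± 10.5 in gRNA1 and 445 ± 7.09 in gRNA2.

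Ratios within a library do not depend on the scaling between libraries. KRT19 per KRT7, as a ratio of CPM, was 0.49, 0.5 and 0.492 in the controls, 0.468, 0.486 and 0.467 in gRNA1, and 0.396, 0.414 and 0.421 in gRNA2. KRT8 per KRT18 was 1.15, 1.19 and 1.11 in the controls, 1.12, 1.15 and 1.17 in gRNA1, and 1.09, 1.04 and 1.09 in gRNA2. Of the 31-base words of KRT18 transcripts, 12% also occur in KRT8, so reads of this pair may not be fully told apart. Both ratios were lower in every gRNA2 library than in every control and gRNA1 library. On this CPM scale KRT19 per KRT7 was also lower in every gRNA1 library than in every control, while KRT8 per KRT18 overlapped there (two-sided exact permutation p = 0.9). The same exact permutation test gave p = 0.1 for each of the differences without overlap, the smallest that 3 against 3 can give. As a ratio of TPM, KRT19 per KRT7 overlapped between gRNA1 (0.431, 0.466 and 0.45) and the controls (0.435, 0.475 and 0.45), with exact permutation p = 0.7. The type II share of the 4 keratins, as a percent of their summed TPM, was 65.5, 64.4 and 64.8 in the controls, 65.6, 64.4 and 65.3 in gRNA1, and 68.5, 67.4 and 67.3 in gRNA2 (exact permutation p = 0.8 for gRNA1 and 0.1 for gRNA2 against the control). That share takes in the gene TPM of KRT7, which was 756 in the controls and 821 in gRNA2, while the CPM fold of KRT7 was 0.985. The share was not computed from CPM. In all, 8 such ratios and sums were compared, and none can pass 0.05 at this size. The sum of the 4 keratins overlapped between groups, at 1522 to 1631 TPM in the controls, 1508 to 1592 in gRNA1 and 1567 to 1621 in gRNA2 (exact permutation p = 0.5 and 1).

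**Figure D2:**
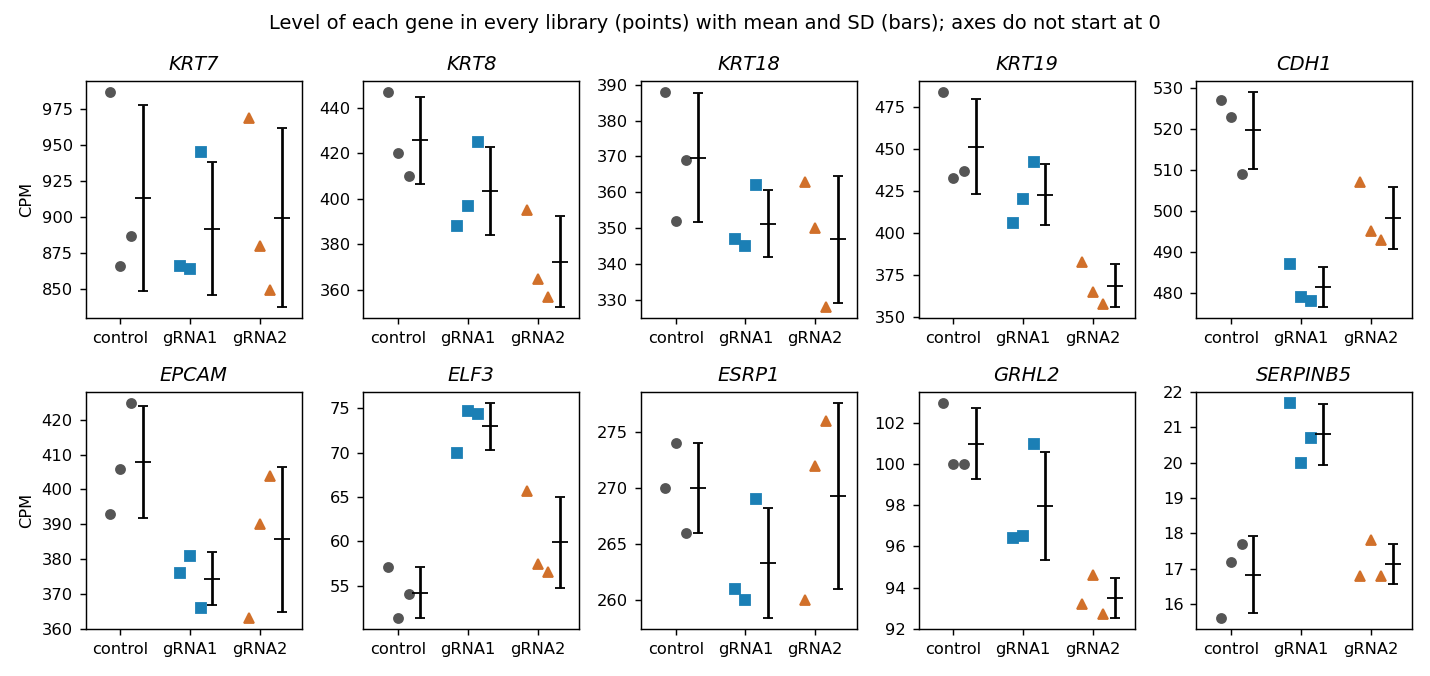
Level (CPM) of each gene in each library as points, with bars for mean and SD (n = 3); each panel has its own axis, which does not start at 0. KRT19 is lower in all gRNA2 libraries (358 to 383 CPM) than in the controls (433 to 484 CPM), and ELF3 and SERPINB5 are higher in all gRNA1 libraries than in all controls.

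Of the adhesion genes, CDH1 was called with gRNA1 and EPCAM with neither guide. CDH1 (chromosome 16, positions 68737225 to 68835548, plus strand) had 527, 523 and 509 CPM in the controls, 487, 479 and 478 in gRNA1, and 507, 495 and 493 in gRNA2. All libraries of both guides lay below all controls. CDH1 fell to 0.927-fold with gRNA1 (0.886 to 0.969, edgeR adjusted p = 0.0413), and stood at 0.959-fold with gRNA2 (0.917 to 1, adjusted p = 0.242). Between the guides the fold was 1.03 (0.99 to 1.08, adjusted p = 0.411), or log2 -0.06 with the length offset. The gRNA1 call lay next to the threshold and was kept in only 6 of 18 alternatives. It did not pass without each of 8 libraries in turn, which were all 3 controls, all 3 of gRNA1 and gRNA2 replicates 2 and 3 (adjusted p = 0.0505 to 0.164). Nor did it pass with no filter on low counts (0.0695), with the 2 groups fitted alone (0.0615), with protein-coding genes alone (0.0818) or with the length offset (0.587). The full-length transcript ENST00000261769.9, with 95.4% of CDH1 reads, overlapped between all groups on the TPM scale, at 82.5 ± 2.95, 77.2 ± 5.36 and 82.2 ± 2.1 TPM in the controls, gRNA1 and gRNA2.

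EPCAM (chromosome 2, positions 47345158 to 47387601, plus strand) had 393, 406 and 425 CPM in the controls, 376, 381 and 366 in gRNA1, and 363, 390 and 404 in gRNA2. The gRNA1 libraries lay below all controls, and gRNA2 overlapped with both. The fold was 0.918 with gRNA1 (0.862 to 0.977, edgeR adjusted p = 0.0967) and 0.945 with gRNA2 (0.887 to 1.01, adjusted p = 0.26). Without the filter on low counts the gRNA1 value passed the threshold (adjusted p = 0.0364). A retained-intron transcript, ENST00000490733.1, held 21% of EPCAM reads. It stood at 142, 139 and 139 TPM in the controls, 119, 130 and 125 in gRNA1 and 112, 130 and 128 in gRNA2, below the controls in every library of both guides. The coding transcript ENST00000263735.8, with 78% of the reads, overlapped between groups, at 213 ± 9.18, 203 ± 8.83 and 214 ± 15 TPM.

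ELF3, the ETS factor, had the largest log2 fold change of the 10 genes over the 3 comparisons. It lies on chromosome 1, positions 202007945 to 202017188, plus strand. It had 57.1, 51.4 and 54.1 CPM in the controls, 69.9, 74.7 and 74.3 in gRNA1, and 65.7, 57.4 and 56.5 in gRNA2. All gRNA1 libraries were above all controls and all gRNA2 libraries, while gRNA2 and the controls overlapped. ELF3 rose 1.35-fold with gRNA1 (1.23 to 1.47, edgeR adjusted p = 0.000691), a call kept in all 18 alternatives with adjusted p up to 0.00746. With gRNA2 it stood at 1.11-fold (1.01 to 1.21, adjusted p = 0.154). Set directly against gRNA1, gRNA2 was lower, at 0.821-fold (0.752 to 0.897, adjusted p = 0.0103), and this call did not pass with the length offset (0.0528) or without gRNA2 replicate 2 (0.061).

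The rise of ELF3 with gRNA1 was spread over its 3 main transcripts. The coding transcript ENST00000367283.7, with 41.1% of the reads, stood at 9.3 ± 0.89 TPM in the controls, 12.7 ± 0.925 in gRNA1 and 10.9 ± 0.233 in gRNA2. The processed transcript ENST00000475698.1 (24.1% of the reads) stood at 14.3 ± 0.882, 20.7 ± 2.29 and 16.4 ± 0.33 TPM. The longer coding transcript ENST00000367284.9 (13.2%) stood at 1.86 ± 0.179, 2.62 ± 0.541 and 2.21 ± 0.148 TPM. For all 3 transcripts every library of either guide lay above every control on this scale. The antisense gene ELF3-AS1, chosen after its values were seen, overlaps ELF3 and had 14.1, 13.4 and 13.7 CPM in the controls, 18.1, 18.4 and 15.8 in gRNA1, and 13.8, 15.4 and 14.4 in gRNA2. It was at 1.27-fold with gRNA1 (1.14 to 1.43, edgeR adjusted p = 0.0129) and 1.06-fold with gRNA2 (adjusted p = 0.55). Since 8.63% of the 31-base words of ELF3 transcripts also occur in ELF3-AS1 and the strand setting is not given, reads of these 2 genes may not be fully told apart.

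A stretch just upstream of the longer coding transcript of ELF3 is shown because ELF3 changed most. It was also chosen because the E-box, the motif bound by ZEB and SNAIL factors, occurs in it. It runs from chr1:202010337-202010516 on the plus strand (RefSeq, GRCh38.p14) and ends 1 base before the start of the longer coding transcript at 202010517. The RefSeq start site, 202010587, lies 70 bases further on. Both the stretch and this start site lie inside the annotated span of ELF3, which begins at 202007945. Capitals mark the E-box match CACCTG.
ELF3 upstream: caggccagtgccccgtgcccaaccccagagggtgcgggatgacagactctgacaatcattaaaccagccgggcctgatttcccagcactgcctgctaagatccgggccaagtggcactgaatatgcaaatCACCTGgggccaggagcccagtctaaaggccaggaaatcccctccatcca
The match lies 120 bases before the RefSeq start. Promoter windows were given for 3 of the 10 members, ELF3, KRT8 and SERPINB5. The RefSeq start sites of KRT8 (52926469) and SERPINB5 (63476958) also lie inside the annotated spans of their genes. In the 250 bases before the start, CACCTG or its reverse complement CAGGTG occurred once each in ELF3 and SERPINB5 (26 bases before the SERPINB5 start) and not in KRT8, and 17.5% of all 35116 promoter windows held it. TATAAA, searched on the gene's strand, occurred 34 bases before the ELF3 start and in neither of the other two, against 6.8% of all windows. The ETS core GGAA or TTCC occurred in 92.7% of all windows and had 2 matches in each of the 3. These motifs were chosen after the sequences were seen and do not overlap, and a match describes letters, not a bound site.

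The other regulators were close to the controls. GRHL2 (chromosome 8, positions 101492432 to 101669726, plus strand), the grainyhead-like activator, had 103, 100 and 100 CPM in the controls, 96.4, 96.5 and 101 in gRNA1, and 93.2, 94.6 and 92.7 in gRNA2. The gRNA2 libraries lay below all others. The fold was 0.924 with gRNA2 (0.874 to 0.977, edgeR adjusted p = 0.0763) and 0.968 with gRNA1 (0.916 to 1.02, adjusted p = 0.508), and with the length offset both turned to above the controls (log2 0.17 and 0.10). On the TPM scale the gRNA2 mean was the highest, at 26.2 ± 0.59 against 22.3 ± 2.1 TPM in the controls. The 2 main GRHL2 transcripts, ENST00000646743.1 and ENST00000251808.7, have nearly equal lengths of 5232 and 5239 bases, and in each of the 6 guide libraries either transcript held all of their joint reads to within 1 read. In the controls the first held 1659, 2027 and 720 reads and the second 0, 110 and 1199. The split between the 2 transcripts thus went from all to none between replicates of both guide groups, and no change in it between groups can be read from these estimates.

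ESRP1 (chromosome 8, positions 94641074 to 94707466, plus strand), the splicing regulator, had 270, 274 and 266 CPM in the controls, 261, 260 and 269 in gRNA1, and 260, 272 and 276 in gRNA2. The groups overlapped. Its fold was 0.975 with gRNA1 (0.926 to 1.03, edgeR adjusted p = 0.602), and 0.998 with gRNA2 (0.947 to 1.05, adjusted p = 0.978), and with the length offset both lay above the controls (log2 0.11 and 0.10). As gene TPM it was at 98.1 ± 4.78 in the controls, 108 ± 4.55 in gRNA1 and 110 ± 5.22 in gRNA2. Its reads were divided over 3 transcripts with 27.4%, 19.5% and 18.5%, and their TPM varied within groups, as for ENST00000642581.1 at 12.2 ± 7.26 TPM in the controls.

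SERPINB5 (chromosome 18, positions 63476761 to 63505085, plus strand) encodes maspin, a clade B serpin that does not inhibit proteases in the usual way and is made by several epithelia. It had 15.6, 17.2 and 17.7 CPM in the controls, 21.7, 20 and 20.7 in gRNA1, and 16.8, 17.8 and 16.8 in gRNA2. All gRNA1 libraries were above all others, and gRNA2 overlapped with the controls. SERPINB5 rose 1.23-fold with gRNA1 (1.11 to 1.36, edgeR adjusted p = 0.0154), and with gRNA2 it stood at 1.02-fold (0.918 to 1.12, adjusted p = 0.886), or below the control with the length offset (log2 -0.04). The fold of gRNA2 over gRNA1 was 0.826 (0.747 to 0.912, adjusted p = 0.0242). The gRNA1 call did not pass without control replicate 1 (0.0592), without gRNA1 replicate 1 (0.0754) or with the length offset (log2 0.07 in place of 0.30, adjusted p = 0.877). The call between the guides did not pass with the length offset (log2 -0.10 in place of -0.28, adjusted p = 0.835), or without gRNA1 replicate 1 or 3 (0.111 and 0.0548) or gRNA2 replicate 1, 2 or 3 (0.0659, 0.0588 and 0.0627).

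The average length that the offset uses for SERPINB5 takes in a rare transcript. ENST00000424602.1, of 560 bases, held 1.61% of its reads, estimated at 3.19, 6.32 and 19.7 reads in the controls, 0, 7.33 and 0 in gRNA1, and 21.3, 0 and 0 in gRNA2. Being short, it reached 2.57 TPM in control replicate 3 and 2.62 TPM in gRNA2 replicate 1, against 4.99 and 4.86 TPM for the main transcript there. The main transcript ENST00000382771.8, of 2783 bases and with 94.4% of the reads, stood at 4.73, 5.27 and 4.99 TPM in the controls, 6.83, 6.21 and 6.04 in gRNA1, and 4.86, 5.57 and 5.38 in gRNA2. All gRNA1 libraries were above all others on that scale too. The part of the short transcript in the loss of the SERPINB5 calls with the length offset was not tested. In KRT8, the retained-intron transcript ENST00000549176.1 (14.1% of KRT8 reads) had 58.2, 65.9 and 53.6 TPM in the controls, 69.1, 76.4 and 85.1 in gRNA1 and 43.5, 61.3 and 76.2 in gRNA2. It was higher with gRNA1 than in all controls, while the main KRT8 transcript ENST00000293308.11 (64.7%) was at 132 ± 8.49, 121 ± 8.62 and 119 ± 3.79 TPM.

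**Figure D3:**
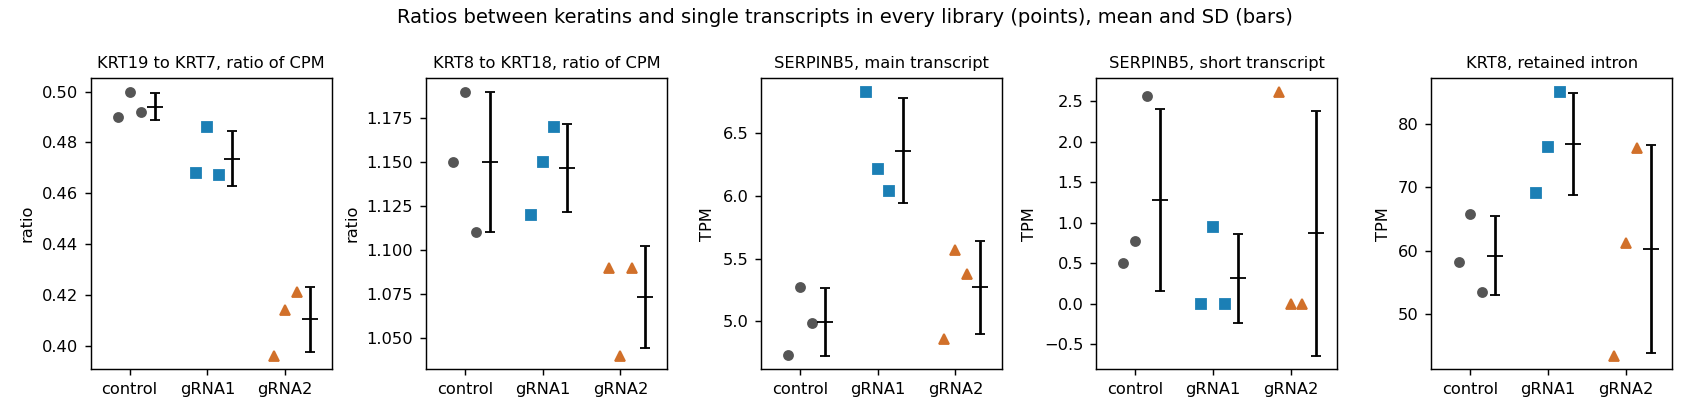
Ratios of keratin levels within each library and TPM of single transcripts of SERPINB5 and KRT8, with points for libraries and bars for mean and SD (n = 3); axes do not start at 0. KRT19 per KRT7 is 0.396 to 0.421 with gRNA2 against 0.49 to 0.5 in the controls, and the short SERPINB5 transcript is at 0 in 4 libraries and reaches 2.57 TPM in control replicate 3 and 2.62 TPM in gRNA2 replicate 1.

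**Figure D4:**
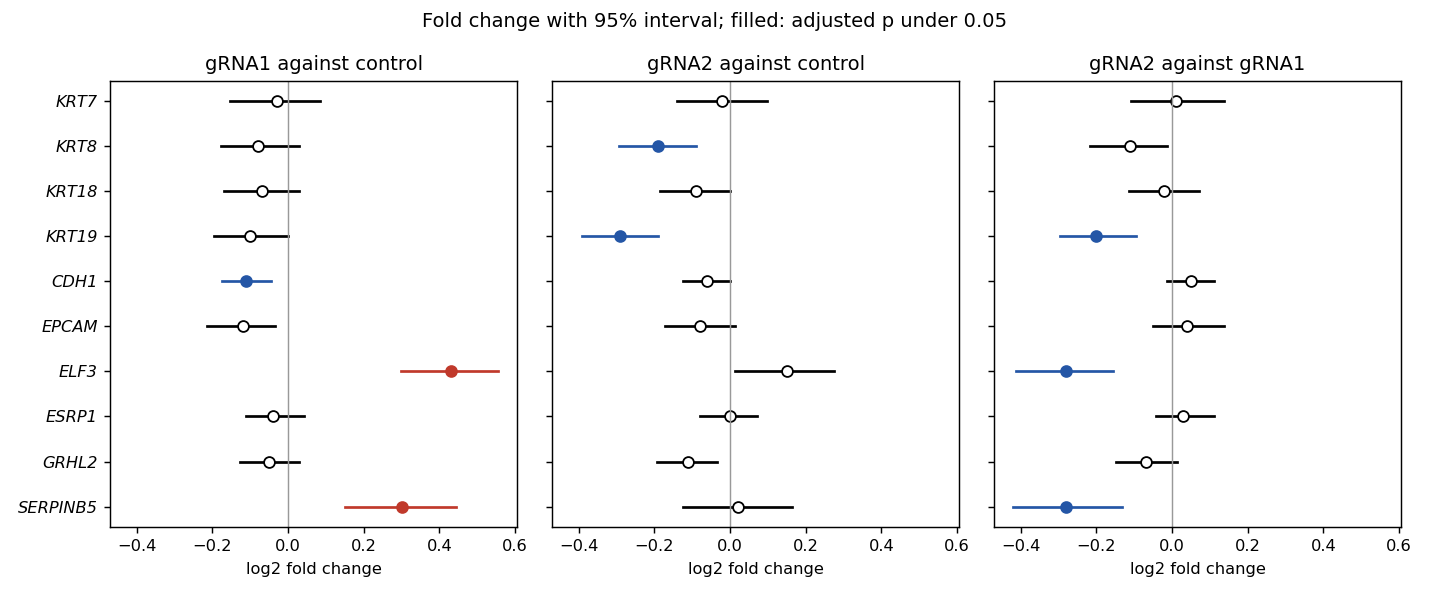
Log2 fold change of each gene in the 3 comparisons (points) with its 95% interval (lines), filled and coloured red (higher) or blue (lower) where the edgeR adjusted p was under 0.05. ELF3 (1.35-fold) and SERPINB5 (1.23-fold) stand to the right with gRNA1, and KRT19 (0.817-fold) stands furthest to the left with gRNA2.

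Among 14338 genes past a mean level of 1 in log2 CPM, members left out, the gene most like each member over the 9 libraries was found by Pearson r of log2 CPM. These are the highest of many values and are given as a description, since the libraries share groups and scaling. For KRT18 it was TIMM10 (r = 0.994), for KRT19 SEC14L1 (0.986), for GRHL2 PGM1 (0.984) and for KRT8 PPP1R14B (0.982). For EPCAM it was GFM1 (0.980), for CDH1 WDCP (0.979), for ELF3 SLC16A4 (0.976) and for KRT7 MYH14 (0.975). The lowest of these were SERPINB5 with OPN3 (0.961) and ESRP1 with GTF2IP1 (0.946).

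The genes around the members were taken from lists chosen with earlier results of these data known. Of 27 further keratins only 6 passed the filter, and KRT81, a hair-type keratin, fell with gRNA1 to 0.719-fold (edgeR adjusted p = 0.00744). It had 10.9, 8.96 and 8.92 CPM in the controls, 6.85, 7.13 and 6.55 in gRNA1, and 12, 11.8 and 11.4 in gRNA2, and was 1.71-fold higher with gRNA2 than with gRNA1 (adjusted p = 0.000194). Its neighbour KRT86 was also higher with gRNA2 than gRNA1 (1.63-fold, adjusted p = 0.00721), but 42.5% of the 31-base words of KRT81 also occur in KRT86, so the pair may not be told apart. With gRNA2 against the control edgeR and DESeq2 called 0 of the 6, and 2 were higher at an unadjusted p under 0.05. The median log2 fold of the 6 was -0.24, 0.24 and 0.42 in the 3 comparisons.

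Calls among the partners of the keratins and of E-cadherin, and in the lists that follow, are read beside the shares over all genes. These were 3.49% higher and 3.58% lower with gRNA1, 3.69% and 4.75% with gRNA2, and 3.12% and 3.1% between the guides. No difference of a list from all genes was tested. Of 15 desmosome and keratin-linker genes past the filter (of 18), 3 fell and 0 rose with gRNA1 by edgeR, with 5 lower and 0 higher at an unadjusted p under 0.05 and 4 and 0 by DESeq2. They were DSP, the desmoplakin that ties keratin filaments to desmosomes (0.911-fold, edgeR adjusted p = 0.0304), and the hemidesmosome integrins ITGA6 (0.88-fold, adjusted p = 0.0102) and ITGB4 (0.796-fold, adjusted p = 0.0459). With gRNA2 ITGA6 alone fell (0.894-fold, adjusted p = 0.0189), and leaving out single libraries moved these counts between 0 and 5 with gRNA1 and 0 and 2 with gRNA2, and none of the 4 calls was kept in every alternative. Of 25 junction genes, all past the filter, 5 fell and 0 rose with gRNA1, 1 fell and 2 rose with gRNA2, and 3 were higher with gRNA2 than gRNA1. At an unadjusted p under 0.05, 8 were lower and 0 higher with gRNA1, and 5 lower and 3 higher with gRNA2. DESeq2 called 5 lower and 0 higher with gRNA1, and 2 lower and 1 higher with gRNA2. Leaving out single libraries moved the junction genes called between 2 and 5 with gRNA1 and 0 and 5 with gRNA2, and no gRNA2 call was kept in every alternative. OCLN, the tight-junction protein occludin, had 145, 144 and 147 CPM in the controls, 118, 114 and 113 in gRNA1, and 133, 140 and 140 in gRNA2. It fell to 0.79-fold with gRNA1 (adjusted p = 0.000102), a call kept in every alternative. CDH3, or P-cadherin, fell to 0.872-fold with gRNA1 (adjusted p = 0.00807), a call lost only with the length offset. CLDN1, claudin-1, was low, at 1.67 to 2.12 CPM with gRNA1 and 3.38 to 3.72 CPM with gRNA2. It was 1.77-fold higher with gRNA2 than with gRNA1 (edgeR adjusted p = 0.00397). Against the control its log2 fold change with gRNA2 was 0.60 (edgeR adjusted p = 0.0193).

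Among 22 further epithelial regulators and surface proteins past the filter (of 26), 5 fell and 1 rose with gRNA1, and 0 fell and 2 rose with gRNA2. With gRNA1, 10 of them were lower and 3 higher at an unadjusted p under 0.05, and DESeq2 called 5 lower and 1 higher. With gRNA2, 5 were lower and 4 higher at an unadjusted p under 0.05, and DESeq2 called 1 lower and 3 higher. Set against gRNA1, gRNA2 had 7 higher and 1 lower at an unadjusted p under 0.05, and edgeR and DESeq2 each called 2 higher and 1 lower. Leaving out single libraries moved the calls of this list between 3 and 7 with gRNA1 and 1 and 5 with gRNA2, and neither gRNA2 call was kept in every alternative. ST14, the membrane protease matriptase, fell to 0.8-fold with gRNA1 (edgeR adjusted p = 0.0038). CD24, a surface glycoprotein, rose with both guides, to 1.33-fold (adjusted p = 0.000263) and 1.41-fold (adjusted p = 4.19e-05), calls lost only with the length offset. KLF4, a factor of epithelial differentiation, was 1.32-fold higher with gRNA2 than gRNA1 (adjusted p = 0.000385).

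Genes of the mesenchymal state were not called higher with gRNA1: of 18 past the filter (of 25), 0 rose and 1 fell by edgeR, 3 were higher at an unadjusted p under 0.05 and DESeq2 called 0 higher. With gRNA2, 2 rose and 2 fell by edgeR, and DESeq2 called 1 higher and 2 lower. Without single libraries 0 to 1 were called with gRNA1 and 2 to 4 with gRNA2. FN1, fibronectin, had 158, 154 and 151 CPM in the controls, 154, 155 and 159 in gRNA1, and 201, 203 and 204 in gRNA2, a rise of 1.31-fold with gRNA2 (edgeR adjusted p = 1.38e-05). TGFBI, a secreted protein induced by TGF-beta, fell with gRNA2 to 0.823-fold (adjusted p = 6.23e-05). Of the E-box-binding repressors, SNAI1 fell (0.773-fold, adjusted p = 0.0274) and SNAI2 rose (1.59-fold, adjusted p = 0.0157) with gRNA2. The SNAI1 call was lost without control replicate 1 or 3 or gRNA2 replicate 2 or 3 (adjusted p = 0.0606 to 0.0957), and that of SNAI2 without control replicate 2 or 3 (adjusted p = 0.0654 to 0.069), and both with the length offset. ZEB1 was at 1.43 to 2.58 CPM in all libraries and not called.

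Among 6 other clade B serpins past the filter (of 11), 0 were called by edgeR or by DESeq2 in any comparison, 1 was higher at an unadjusted p under 0.05 with gRNA1 and 1 between the guides, and SERPINB6 and SERPINB1, the most abundant, stood at 98.9 to 108 and 66.7 to 76 CPM. Of 10 genes whose splicing ESRP1 and ESRP2 are known to direct, 2 rose and 1 fell with gRNA1 and 1 fell with gRNA2, as gene totals, with 1 to 3 and 0 to 1 called when single libraries were left out. CD44, whose variant exons depend on ESRP1, fell with both guides, to 0.875-fold (adjusted p = 0.00274) and 0.901-fold (adjusted p = 0.0111). The gRNA2 call of CD44 was lost without control replicate 2 or gRNA2 replicate 2 (adjusted p = 0.0774 to 0.0897), and both CD44 calls with the length offset (0.128 and 0.379). Exon use was not measured from these gene totals. The median log2 fold with gRNA1 was -0.09 for desmosome and linker genes, -0.09 for junction genes, -0.12 for epithelial regulators and surface proteins, -0.01 for the mesenchymal list, -0.03 for the serpins and 0.04 for the splicing targets, beside 0.00 for all genes. With gRNA2 these medians were -0.10, -0.05, -0.03, 0.10, 0.13 and -0.02, beside 0.01 for all genes, and between the guides 0.02, 0.10, 0.09, 0.13, 0.08 and -0.07, beside 0.00.

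**Figure D5:**
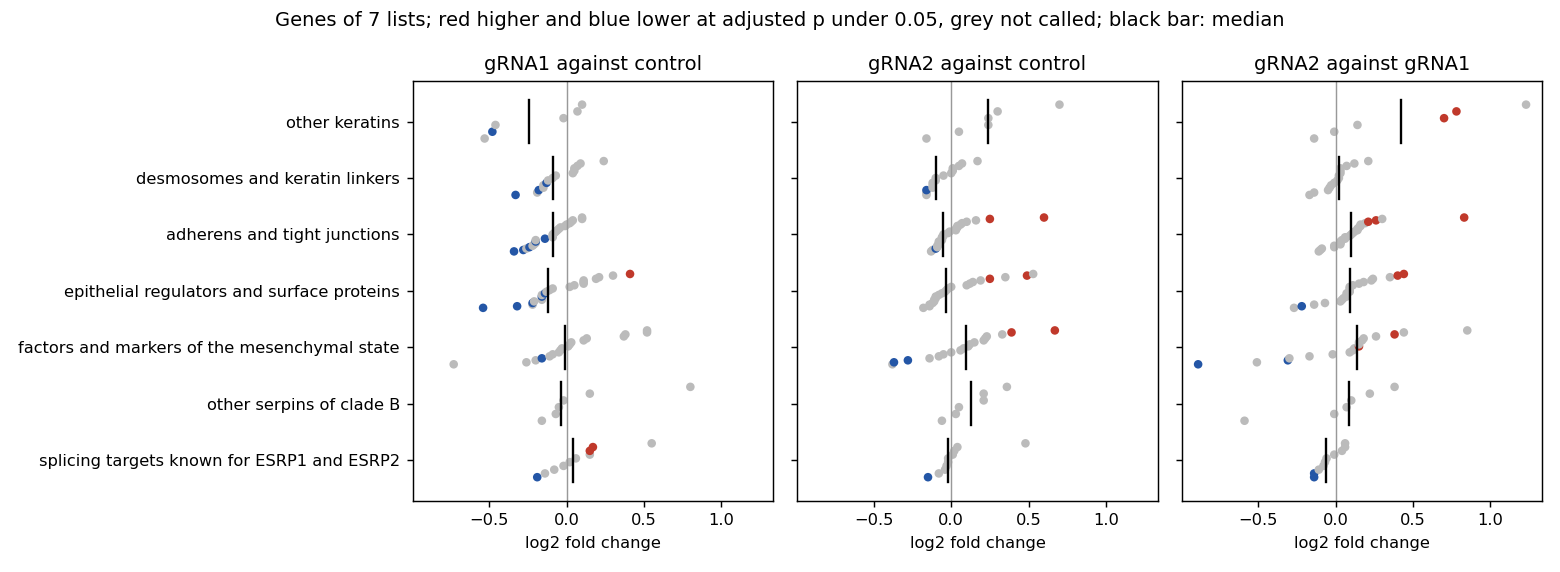
Log2 fold change of each gene past the filter in the 7 lists (points) in the 3 comparisons, red and blue for higher and lower at an edgeR adjusted p under 0.05, grey for not called, black bars for list medians. With gRNA1, 5 junction genes and 5 epithelial regulators or surface proteins are blue, and the medians of all lists but the 6 other keratins lie within 0.13 of 0.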

How the data were processed

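Per the submitters' processing notes, which name Salmon 1.4.0 and hg38, the authors deposited a table for each library with an estimated count of reads (whole reads split between transcripts), TPM, length and effective length for each of 211939 transcripts. Of these, 95.7% matched GENCODE 29, and 1.26% to 1.33% of reads lay on unmatched transcripts and were left out. Summing the estimated counts gave 56823 genes, whose sums were rounded to whole numbers. In edgeR 4.0.16 (R 4.3.3), filterByExpr left 19658 genes, libraries were scaled by TMM, and two-sided quasi-likelihood F tests in 1 fit of all 9 libraries gave p-values adjusted by Benjamini-Hochberg over all genes, with a threshold of 0.05. CPM use TMM-scaled sizes. The deposited TPM was summed to genes for levels and used in no gene test. Ratios were compared by exact permutation. DESeq2 1.42.0, other scalings, filters and left-out libraries were the alternatives. The fit was tested on simulated data. Totals of 16918432 to 26466536 reads set the precision, and a fold's 95% interval includes counting error and edgeR's estimate of the variation among libraries. Python 3.11.15 did the sums.

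The members and lists were chosen with earlier results of these data known. All 10 members are named; of the lists, genes past the threshold (up to 6 per comparison, or the 2 most abundant where none passed), a selection of which is printed, with 1 gene counted in its list but not reported here; and for each member the gene of highest Pearson r. Transcripts with at least 10% of a member's reads are described, and the short SERPINB5 transcript was added after its values were seen. TRIDENT is listed as a synonym by a noncoding and also by a protein-coding RefSeq record. The noncoding record was used because the study's title calls TRIDENT a long noncoding RNA, and the values given for the target rest on this choice. GENCODE 29 links that record to a transcript of TRIDDENT. Promoter sequences were read from RefSeq (GRCh38.p14).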

Additional observations from a re-analysis of the deposited data

Results flagged for a closer look

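For 3 genes the change from the control differed between the guides, by the direct edgeR test of gRNA2 against gRNA1. KRT19 was lower with gRNA2 than with gRNA1 in 3 of 3 libraries, with a log2 fold change of -0.20 (adjusted p = 0.0229). ELF3 was lower with gRNA2 in 3 of 3 libraries, at -0.28 (adjusted p = 0.0103). SERPINB5 was lower with gRNA2 in 3 of 3 libraries, at -0.28 (adjusted p = 0.0242). KRT19 departed from the control with gRNA2, and ELF3 and SERPINB5 with gRNA1.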

How the results depend on the processing

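The calls of ELF3 with gRNA1 and of KRT19 with gRNA2 held in all 18 alternatives, and the calls of CDH1, SERPINB5 and KRT8 and the 3 between the guides did not. Adding pseudogene reads or leaving out KRT8 transcripts changed counts of keratins and their pseudogenes alone, so these alternatives could hardly move ELF3, CDH1 or SERPINB5. For KRT19 the pseudogene reads equalled 0.0309% of its own. DESeq2, RLE scaling, adding pseudogene reads and leaving out KRT8 transcripts that reach into KRT18 moved no count of all genes or of members called by over 1.5 times. With the length offset, 538 genes were called with gRNA1 (290 higher, 248 lower), 434 with gRNA2 (214 and 220) and 446 between the guides (263 and 183), and 1 member in each comparison. There the log2 fold turned, for genes that were not called, to 0.11 for ESRP1 and 0.10 for GRHL2 with gRNA1, to 0.05 for KRT7, 0.10 for ESRP1, 0.17 for GRHL2 and -0.04 for SERPINB5 with gRNA2, and to -0.06 for CDH1, -0.002 for EPCAM, -0.01 for ESRP1 and 0.07 for GRHL2 between the guides. With protein-coding genes alone, ESRP1 turned to 0.02 with gRNA2. The cause was not tested.

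Leaving out each library in turn moved the genes called to 654 to 1701 with gRNA1, 671 to 1817 with gRNA2 and 575 to 1215 between the guides, and the members called to 1 to 3, 1 to 2 and 0 to 3. The counts moved by over 1.5 times with gRNA1 without control replicates 1, 2 and 3 (826, 786 and 727) and gRNA1 replicates 1 and 2 (756 and 654), with gRNA2 without control replicates 1, 2 and 3 (1023, 900 and 792) and gRNA2 replicate 2 (671), and between the guides without gRNA1 replicates 1 and 2 (690 and 641) and gRNA2 replicate 2 (575). Log2 folds that turned stayed small: KRT7 at -0.08 to 0.03, -0.07 to 0.04 and -0.04 to 0.06 in the 3 comparisons, ESRP1 at -0.02 to 0.03 and SERPINB5 at -0.02 to 0.06 with gRNA2, and KRT18 at -0.05 to 0.02 between the guides.

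Same-numbered libraries of different groups did not all deviate together (correlations of -0.161 to 0.207), so the numbers were not taken as pairs. With the replicate block, 1264, 1582 and 1144 genes and 3, 2 and 3 members were called. Without the filter, 2041, 2354 and 1777 of 35716 genes were called.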
